A study of Acipenser schrenckii with 6 samples.

Results

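LOC131721867 is the gene annotated inositol-3-phosphate synthase 1-A-like, 1 of 82023 features in an expression table of Amur sturgeon gut. It was found by its gene name and had been selected on its FPKM in these libraries, which differ widely between the diets, so its own diet difference is described here without a test. The table places it on NC_081237.1 from 8442738 to 8450937 with a length of 2643 bases for the calculation of its level. The submitters' processing notes name the mouse build mm10, whereas the table uses other RefSeq names. The assembly and its species could thus not be settled here, so coordinates and numbers of loci are those of the table. The study asked whether feeding live Limnodrilus before release to a river alters gene expression. The fish (Acipenser schrenckii, of similar genetic background, artificially bred and held in net cages) received either fresh Limnodrilus, a tubificid worm grown in the water source of the fish, or commercial feed, in both cases for 30 days. Gut RNA gave 3 libraries for each diet. The labels give no age and leave unsaid whether fish were pooled, so p-values reflect only how far these libraries differ, part of which may be technical.

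Inositol-3-phosphate synthase, encoded by ISYNA1 in mammals, converts glucose 6-phosphate to inositol 3-phosphate, the rate-limiting step by which cells make inositol. Inositol monophosphatases then remove the phosphate to give free myo-inositol, which can also be taken up by transporters or recovered from inositol phosphates. Myo-inositol is the head group of phosphatidylinositol and the parent of the inositol phosphate messengers, and in fish it also serves as an organic osmolyte, with the synthase known to respond to salinity in tilapia.

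Levels are FPKM, the fragments per kilobase of feature length and scaled to the library's total, as the authors deposited them. LOC131721867 was at 53.8, 49.2 and 37.3 FPKM in Limnodrilus libraries 1 to 3, against 0.879, 0.304 and 0.613 FPKM in commercial feed libraries 1 to 3. The lowest Limnodrilus library lay far above the highest commercial feed library, and the groups did not overlap, as was so, in this direction, for 28.4% of the tested features. The mean was 46.7 ± 8.51 FPKM with Limnodrilus and 0.599 ± 0.288 FPKM with commercial feed (SD, n = 3 each), a ratio of means of 78.0. As a difference of log2(FPKM + 1), a scale that shrinks the change of a feature near 0, it came to 4.90, rank 11 among the 23644 features whose mean reached 1 FPKM. The locus met that minimum through its Limnodrilus libraries alone. In bulk tissue, more cells that express a gene and more of its RNA per cell cannot be told apart.

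In whole reads, recovered from the spacing of the deposited values, the locus held 1971, 2555 and 1678 reads with Limnodrilus and 24, 8 and 17 with commercial feed. Totals recovered for whole libraries were 13.9, 19.7 and 17.04 M reads with Limnodrilus and 10.3, 9.95 and 10.5 M reads with commercial feed. Depth and diet thus differ together, and the part of depth was not tested. The locus was at 142 (exact Poisson 95% interval 136 to 149), 130 (125 to 135) and 98.5 (93.8 to 103) reads per M with Limnodrilus. The corresponding values with commercial feed were 2.32 (1.49 to 3.46), 0.804 (0.347 to 1.59) and 1.62 (0.944 to 2.60). The Limnodrilus intervals did not overlap one another, narrowly so for libraries 1 and 2, and library 3 lay furthest below. The commercial feed intervals overlapped, which does not show that those libraries are alike. These intervals hold counting error alone, as PCR can copy 1 molecule many times. Over the summed reads the rate with Limnodrilus was 77.0 times that with commercial feed, with an exact counting interval of 58.2 to 104. That interval leaves out the spread between libraries as well. Within a library the locus ranked 1178, 1444 and 1823 from the top with Limnodrilus, above more than 95.1% of the features with a value, and 20500, 25938 and 24806 from the top with commercial feed.

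The table holds 2 features with this product name. The second, LOC117401487, lies on NC_081235.1 from 8810305 to 8818324 with a length of 2609 bases. Its Limnodrilus libraries held 27.5, 25.4 and 18.3 FPKM, and its commercial feed libraries 0.111, 0.193 and 0.146 FPKM. As at LOC131721867, the diets did not overlap, and Limnodrilus library 1 was the highest and library 3 the lowest of its diet. Its mean was 23.7 ± 4.81 FPKM with Limnodrilus and 0.15 ± 0.0408 FPKM with commercial feed (SD, n = 3 each). The log2 fold change was 4.41 ± 0.295 (SE; limma-trend adjusted p = 0.00235, Benjamini-Hochberg over 23644 features). Like LOC131721867, it reached the minimum of the test through its Limnodrilus libraries alone, so a feature kept in this way had to differ. By this test 17.7% of all tested features were called, 14% as higher and 3.64% as lower with Limnodrilus. The call held without each single library, with adjusted p between 0.00571 and 0.0416. Only 3, 5 and 4 reads stood behind the commercial feed values, so the ratio of rates, 158, has a counting interval of 90.2 to 306. It overlaps that of LOC131721867, which does not show that the 2 ratios are alike, and both intervals leave out the spread between libraries. The 2 loci carry the same product name, and how reads that match both places were treated is not given in the sources used here, so the loci may share reads, which was not tested.

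**Figure D1:**
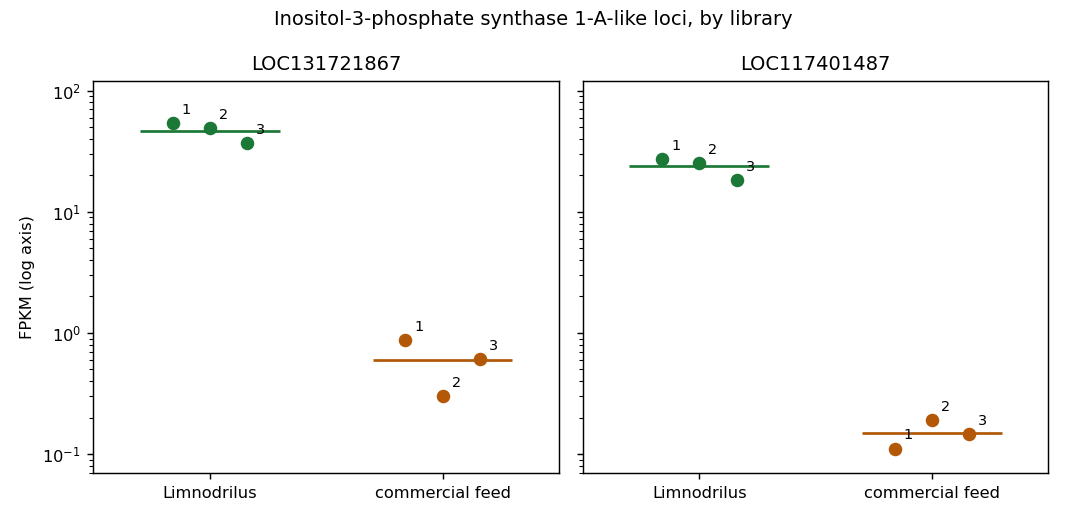
FPKM (log axis) of the inositol-3-phosphate synthase 1-A-like loci LOC131721867 and LOC117401487 in each library, numbered by replicate, with the mean of each diet as a line. At both loci the 3 Limnodrilus libraries sit above the 3 commercial feed libraries, 37.3 to 53.8 against 0.304 to 0.879 FPKM at LOC131721867 and 18.3 to 27.5 against 0.111 to 0.193 FPKM at LOC117401487.

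LOC131721867 supplied 66.5%, 66.2% and 67.3% of the reads of the pair in Limnodrilus libraries 1 to 3, with exact (Clopper-Pearson) 95% intervals of 64.7% to 68.2%, 64.7% to 67.7% and 65.5% to 69.2%. In the commercial feed libraries the share was 88.9%, 61.5% and 80.95%, but with 27, 13 and 21 reads for the pair the intervals ran from 70.8% to 97.7%, from 31.6% to 86.1% and from 58.1% to 94.6%. In reads summed over each diet the share was 66.6% (65.6% to 67.55%) with Limnodrilus and 80.3% (68.2% to 89.4%) with commercial feed. These summed intervals do not overlap, but they leave out the spread between libraries. The mean share was 66.7% ± 0.588 with Limnodrilus and 77.1% ± 14.1 with commercial feed (SD, n = 3 each), and the commercial feed shares lay on both sides of the Limnodrilus ones. The level per length of LOC131721867 was thus close to 2 times that of LOC117401487 within each Limnodrilus library, at ratios of 1.96, 1.94 and 2.04. Both loci together averaged 70.4 ± 13.3 FPKM with Limnodrilus and 0.749 ± 0.247 FPKM with commercial feed (SD, n = 3 each). For comparison, 5325 other products have exactly 2 loci in the table, both tested. Both loci rose in 8.71% of these pairs (464), only 1 of the 2 was called, in either direction, in 19.3% (1026) and neither in 70.8%. The synthase pair holds a locus selected for its diet difference, unlike these pairs. The shares over all pairs therefore do not measure how unusual its joint difference is. The gap between the log2 fold changes of the synthase pair was 0.49, near the median gap of 0.48 over the other pairs. Which of the 2 loci differed more depends on the scale, as their commercial feed values lie near 0. LOC131721867 and LOC117401487 were at 6.14 and 6.57 with a pseudocount of 0.1, and at 6.34 and 7.15 with limma-voom on recovered reads.

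The genes beside the synthase loci were mostly low and did not share the size of its difference. Of the 20 features around LOC131721867, 10 on each side, 18 had the same product name, in the same order, as features around LOC117401487, so the loci sit in blocks of matching gene order on different sequences. Of those 20, 9 reached a mean of 1 FPKM, of which 1 rose and 8 did not pass. Over all tested features 14% rose and 3.64% fell. The nearest gene on the side of lower coordinates, the ankyrin repeat gene LOC117966166, lies 3229 bases away and had at most 0.0302 FPKM in any library. On the other side, 6152 bases away, the gene for the RNA polymerase II elongation factor ELL, LOC117966254, was at 0.685, 1.51 and 0.558 FPKM with Limnodrilus and at 0.221, 0.0764 and 0.109 FPKM with commercial feed, below the minimum for the test. The diets did not overlap there, at levels far under those of the synthase. The further named neighbours were single-stranded DNA-binding protein 3 (LOC117966364), the oxidative stress sensor KEAP1A (LOC117962286), the immunophilin FKBP8 (LOC117401499) and the deacylase sirtuin-6 (LOC117966301). Their differences on the log2(FPKM + 1) scale were 0.02, -1.34, 0.30 and -0.51, and the 3 that were tested did not pass (adjusted p = 0.981, 0.224 and 0.376 for LOC117966364, LOC117962286 and LOC117966301). LOC117962286 averaged 3.17 FPKM in commercial feed without library 3, against 8.36 with it.

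Around LOC117401487, 13 of the 20 features were tested, of which 2 rose, 1 fell and 10 did not pass, beside 14% higher and 3.64% lower over all. Of those that rose, LOC117962283 averaged 2.57 FPKM with Limnodrilus and 0.4855 with commercial feed. It met the minimum for the test through its Limnodrilus libraries alone, so it had to differ. The ELL locus next to LOC117401487, LOC117401444, was at 2.54, 3.39 and 2.26 FPKM with Limnodrilus and at 1.24, 0.346 and 0.889 FPKM with commercial feed (log2 fold change 1.05, adjusted p = 0.0630). In each block the neighbour that rose most was the elongation factor 2b locus, a translation factor, in sixth place from the synthase. LOC117401405 averaged 21.5 FPKM with Limnodrilus and 2.21 with commercial feed (adjusted p = 0.0101), and LOC131721061 averaged 86.0 and 11.3 FPKM (adjusted p = 0.0147). Without Limnodrilus library 1, 2 or 3 the adjusted p was 0.0423, 0.0488 and 0.0472 for LOC117401405 and 0.0557, 0.0679 and 0.0615 for LOC131721061, and without commercial feed library 1 their commercial feed means were 1.44 and 5.48 FPKM. These elongation factor loci were singled out after their values were seen.

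**Figure D2:**
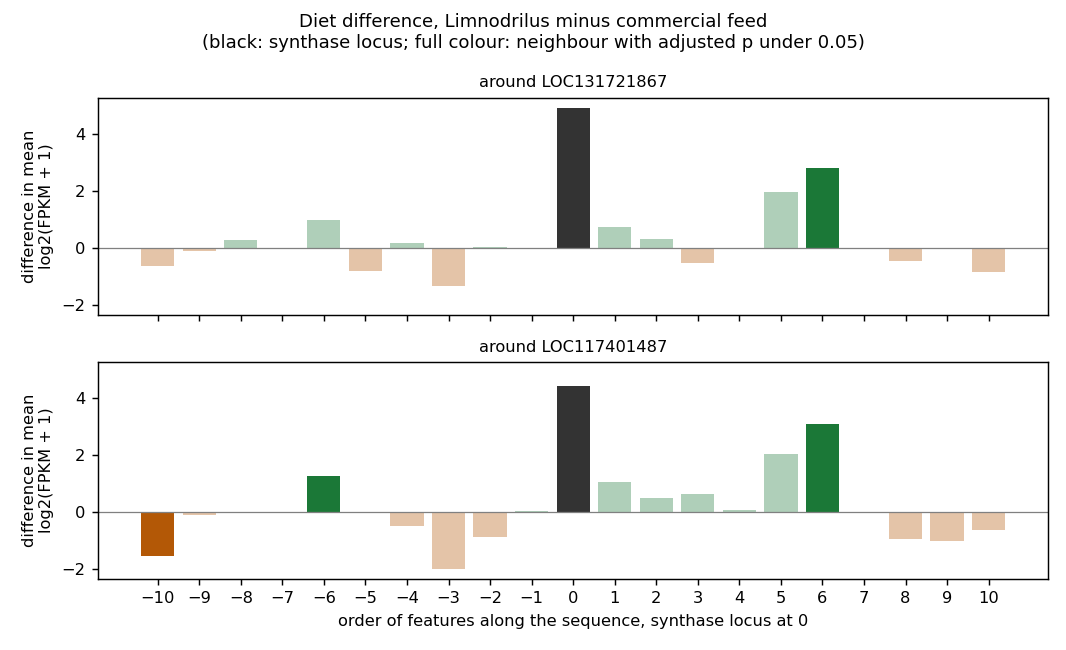
Difference between diets in mean log2(FPKM + 1), Limnodrilus minus commercial feed, for the 10 features on each side of LOC131721867 (top) and LOC117401487 (bottom), in their order along the sequence. The synthase bars (black, 4.90 and 4.41) are the tallest in their blocks, and the neighbours range from -1.34 to 2.81 around LOC131721867 and from -1.99 to 3.09 around LOC117401487.

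Summed levels of cell type markers varied between libraries, within diets as well as between them. The cell make-up of the samples itself was not measured. Absorptive enterocyte markers, 21 of 23 features tested and 0 of 23 at 0 throughout, summed to 2055, 9032 and 3901 FPKM in the Limnodrilus libraries and to 96.8, 353 and 2490 FPKM in the commercial feed libraries. Smooth muscle markers summed to 4134 to 6000 FPKM with Limnodrilus and 1227 to 15450 FPKM with commercial feed, exocrine pancreas markers to 594 to 1205 and 72.7 to 3216 FPKM, leukocyte markers to 52.4 to 128 and 17.7 to 210 FPKM, and liver markers, with 8 of 16 features tested, to 7.49 to 91.5 and 4.998 to 30.1 FPKM. Goblet cell markers summed to 1037 to 1825 FPKM with Limnodrilus and 370 to 1214 FPKM with commercial feed, enteroendocrine and neural markers to 51.6 to 154 and 8.01 to 63.3 FPKM, and erythroid markers to 47.2 to 132 and 5.37 to 241 FPKM. Of the features, 1 of 26 smooth muscle and 8 of 54 goblet features were at 0 throughout. Of the 21 tested enterocyte features 3 rose and 0 fell. In 12 of them the Limnodrilus libraries were all above the commercial feed libraries, and in 0 all below. Over all tested features 14% rose and 3.64% fell, while 28.4% and 11.5% lay without overlap in these directions. The enterocyte median log2 fold change was 1.86, beside 0.243 over all features tested. The part of these cell types in the difference at LOC131721867 was not tested. The difference at LOC131721867 was 4.76 to 5.05 on the log2(FPKM + 1) scale without each single library.

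The next enzyme of the route went the other way at 2 of its loci. Inositol monophosphatase 1, which frees inositol from its phosphate, has 4 loci in the table, of which 3 were tested, 2 fell and 1 did not pass. Over all tested features 3.64% fell. LOC117394168 was at 2.90, 1.41 and 3.76 FPKM with Limnodrilus and at 12.7, 12.3 and 17.02 FPKM with commercial feed (log2 fold change -2.06 ± 0.358 SE, adjusted p = 0.0132). LOC117399387 was at 0.753, 4.34 and 3.17 FPKM with Limnodrilus and at 10.4, 10.7 and 11.8 FPKM with commercial feed (log2 fold change -1.81 ± 0.444 SE, adjusted p = 0.0317). At both loci every Limnodrilus library lay below every commercial feed library, as was so for 11.5% of the tested features. LOC117399741 was at 7.20, 12.3 and 7.51 FPKM with Limnodrilus and at 7.08, 7.21 and 10.3 FPKM with commercial feed, with overlapping diets (adjusted p = 0.856). The fourth, LOC117400660, was at or below 0.183 FPKM with Limnodrilus and reached 1.54 FPKM in commercial feed library 1 only. The related impa2 averaged 4.68 ± 0.585 FPKM with Limnodrilus and 4.16 ± 0.275 with commercial feed and did not pass (adjusted p = 0.765). Summed over the 4 monophosphatase 1 loci, the level was 11.04, 18.1 and 14.5 FPKM with Limnodrilus and 31.7, 30.2 and 39.1 FPKM with commercial feed.

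Without Limnodrilus library 1, 2 or 3 the adjusted p of LOC117394168 was 0.0588, 0.0555 and 0.0473, and that of LOC117399387 was 0.0962, 0.0618 and 0.0875. Without these libraries, in that order, the calls over all features dropped from 4182 to 692, 564 and 592. A call lost there is thus not particular to these loci. LOC117399387 also missed the threshold when commercial feed library 1 (adjusted p = 0.0574) or library 2 (0.0768) was left out. It missed it too with limma-voom on the recovered reads (0.0528) and with no filter on low values (0.0572), while its direction held in each of these.

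Inositol polyphosphate 1-phosphatase, encoded by inpp1 in mammals, acts before the monophosphatases when inositol is recovered from inositol bisphosphates. Of its 4 loci 3 rose, beside 14% of all tested features. LOC117400900 was at 11.02, 16.5 and 7.59 FPKM with Limnodrilus and at 0.434, 1.23 and 2.85 FPKM with commercial feed (log2 fold change 2.40, adjusted p = 0.0159). LOC117403754 averaged 6.09 ± 1.99 and 1.12 ± 0.307 FPKM with Limnodrilus and with commercial feed (adjusted p = 0.0166). LOC131696488 averaged 3.51 ± 2.52 and 0.230 ± 0.0870 FPKM in the same order of diets (adjusted p = 0.0311). The fourth, LOC117427192, averaged 5.04 ± 2.03 FPKM with Limnodrilus and 2.53 ± 1.10 with commercial feed and did not pass (adjusted p = 0.189). The nucleotidase gene bpnt2, of the same enzyme family, rose to 9.55 ± 1.65 FPKM with Limnodrilus, against 3.93 ± 0.805 with commercial feed (adjusted p = 0.0458). Summed over the 4 polyphosphate 1-phosphatase loci the level was 21.3, 34.9 and 22.8 FPKM with Limnodrilus and 3.76, 4.38 and 8.02 FPKM with commercial feed.

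Of these 4 calls none held without Limnodrilus library 1 (adjusted p 0.0533 to 0.115), library 2 (0.0696 to 0.145) or library 3 (0.0519 to 0.166), where most calls over all features were lost as well. Those of bpnt2 and LOC131696488 were also lost without commercial feed library 1 or 2 (0.0625 to 0.0911) and under median-of-ratios scaling, quantile normalization and limma-voom (0.0506 to 0.0857), and that of bpnt2 with a pseudocount of 0.1 (0.0510). LOC131696488 averaged 2.07 FPKM with Limnodrilus without library 2, where it was under the minimum for the test, and LOC117400900 averaged 0.833 FPKM in commercial feed without library 3. LOC131696488, with a commercial feed mean under 1 FPKM, met that minimum through its Limnodrilus libraries alone, so it had to differ.

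**Figure D3:**
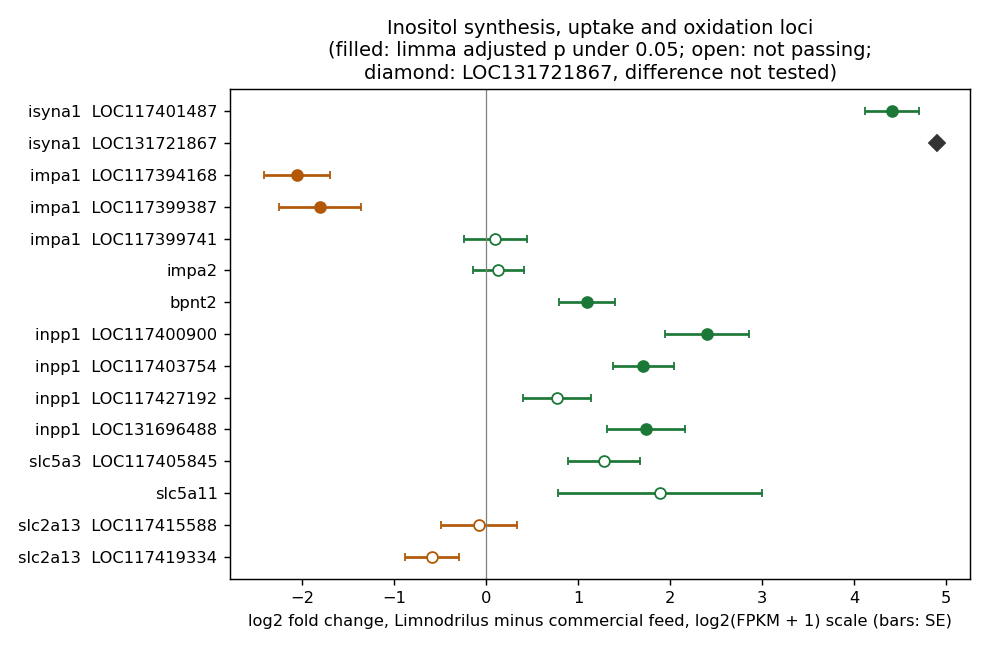
Log2 fold change of log2(FPKM + 1), Limnodrilus minus commercial feed, with its SE, for each tested locus of inositol synthesis, uptake and oxidation; filled circles passed the limma-trend test, and the diamond is LOC131721867, whose difference was not tested. The synthase loci lie furthest right at 4.41 and 4.90, and the monophosphatase 1 loci LOC117394168 and LOC117399387 furthest left at -2.06 and -1.81.

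Inositol uptake and oxidation gave 0 calls by limma-trend among 4 tested of 6 features, with 1 unadjusted p under 0.05, and 0 calls by limma-voom. Over all tested features 17.7% were called by limma-trend, and nothing is read from 0 calls among so few features. The sodium-coupled transporter slc5a11 (SMIT2) was the most abundant, at 43.5, 52.8 and 32.3 FPKM with Limnodrilus and at 0.587, 20.7 and 45.0 FPKM with commercial feed. Commercial feed library 3 thus lay within the range of the Limnodrilus libraries (adjusted p = 0.272, and 0.0642 without that library, where the commercial feed mean was 10.6 FPKM). LOC117405845, annotated as the sodium/myo-inositol cotransporter (SMIT1), was at 2.33, 3.90 and 1.40 FPKM with Limnodrilus and at 0.0989, 0.274 and 0.942 FPKM with commercial feed. The diets did not overlap there, as was so in this direction for 28.4% of the tested features. LOC117405845 did not pass (adjusted p = 0.0601), and passed without commercial feed library 3 (0.0293). With a commercial feed mean of 0.438 FPKM, it met the minimum for the test through its Limnodrilus libraries alone, so it had to differ. The proton myo-inositol cotransporter (HMIT) loci LOC117415588 and LOC117419334 averaged 4.75 and 0.971 FPKM with Limnodrilus and 5.66 and 1.98 FPKM with commercial feed (adjusted p = 0.909 and 0.202), and LOC117415588 averaged 3.69 FPKM in commercial feed without library 1. Inositol oxygenase, which starts the breakdown of inositol and is best known from kidney, was barely detected, at 0.141 to 0.238 FPKM with Limnodrilus and 0.0604 to 0.0872 FPKM with commercial feed for LOC117414731. Its second locus, LOC117420004, had 0.457 FPKM in Limnodrilus library 1 and was listed at 0 in the other libraries.

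Phosphatidylinositol is made from inositol and CDP-diacylglycerol, and 1 locus rose for each of the enzymes cdipt and cds1 of these steps. Synthesis and transfer of this lipid had 16 tested features, 5 that rose (31.3%, beside 14% of all), 1 that fell (6.25%, beside 3.64%) and 10 that missed the threshold. Their median log2 fold change was 0.55, beside 0.243 over all features tested. The phosphatidylinositol synthase locus LOC131733451 (cdipt) was at 34.7, 24.3 and 24.0 FPKM with Limnodrilus and at 5.77, 6.56 and 3.79 FPKM with commercial feed (log2 fold change 2.18 ± 0.338 SE, adjusted p = 0.0106). LOC117403731, the CDP-diacylglycerol synthase locus cds1 that makes its lipid substrate, was at 17.8, 18.4 and 14.2 FPKM with Limnodrilus and at 2.67, 1.74 and 3.87 FPKM with commercial feed (log2 fold change 2.28 ± 0.333 SE, adjusted p = 0.00934). At both loci the Limnodrilus libraries were all above the commercial feed libraries, as was so for 28.4% of the tested features. The other locus of each missed the threshold: LOC131709652 (cdipt) averaged 3.36 ± 0.941 FPKM with Limnodrilus and 3.24 ± 1.07 with commercial feed (adjusted p = 0.935), and LOC117963154 (cds1) averaged 20.1 ± 1.51 and 7.46 ± 3.80 FPKM (adjusted p = 0.0534). The mitochondrial tamm41 loci, LOC117412046 and LOC131697697, with the same activity as cds1, missed it as well (log2 fold change -0.65 and -0.32, adjusted p = 0.158 and 0.511). These 4 loci are given beyond the naming rule, after their values were seen. The lipid carrier locus LOC117428239 (phosphatidylinositol transfer protein beta) averaged 40.3 ± 1.74 FPKM with Limnodrilus and 8.83 ± 2.31 with commercial feed (adjusted p = 0.0104). A cytoplasmic transfer protein 1 locus, LOC117423494, fell to 2.76 ± 1.20 FPKM with Limnodrilus, against 13.5 ± 6.48 with commercial feed (adjusted p = 0.0241). Of these 4 calls, 1, 2 and 1 held without Limnodrilus library 1, 2 or 3, where most calls over all features were lost. Adjusted p ran up to 0.0821, 0.0937 and 0.0690 there, and LOC117423494 was also lost without commercial feed library 2 (0.0595). LOC117423494 was lost in each of these cases, LOC117403731 in none of them.

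Kinases and phosphatases then add and remove phosphates on the inositol ring of the lipid. Of 30 tested phosphoinositide kinase features 3 rose and 1 fell, and of 44 phosphatase features 4 rose and 2 fell, with medians of 0.25 and 0.17. The kinase shares, 10% higher and 3.33% lower, and the phosphatase shares, 9.09% and 4.55%, are close to or under the 14% and 3.64% of all tested features, and nothing is read for these families from their counts. The kinases that rose were LOC117395512 (PI 4-kinase beta), LOC117433461 (a type 2 beta PIP 4-kinase) and LOC117409636 (PI 4-kinase type 2 beta). LOC117395512, a Golgi kinase, averaged 8.69 ± 0.2797 FPKM with Limnodrilus and 2.27 ± 0.713 with commercial feed (adjusted p = 0.0160). LOC117433461 averaged 7.47 ± 1.26 and 1.73 ± 0.669 FPKM in that order (adjusted p = 0.0163), and LOC117409636 averaged 14.8 ± 5.35 and 4.05 ± 2.79 FPKM (adjusted p = 0.0412). The class II PI 3-kinase locus LOC117432305 fell to 2.28 ± 0.180 FPKM, against 6.23 ± 0.639 with commercial feed (adjusted p = 0.0301). Among the phosphatases ptenb, which reverses PI 3-kinase, averaged 14.3 ± 2.02 FPKM with Limnodrilus and 3.44 ± 0.312 with commercial feed (adjusted p = 0.0113). The SAC1 phosphatase LOC117394892, of the endoplasmic reticulum and Golgi, averaged 13.0 ± 1.88 and 3.54 ± 1.20 FPKM with Limnodrilus and with commercial feed (adjusted p = 0.0173). The myotubularin-related loci LOC117405907 and LOC117430748 rose as well (adjusted p = 0.0216 and 0.0225). LOC117430748, with a commercial feed mean under 1 FPKM, met the minimum for the test through its Limnodrilus libraries alone, so it had to differ. The 2 phosphatase falls, outside the naming rule, were inpp4aa, a 4-phosphatase at 8.004 ± 2.49 FPKM with Limnodrilus and 22.5 ± 5.90 with commercial feed (adjusted p = 0.0369), and the myotubularin-related protein 1 locus LOC117430210 at 5.26 ± 2.78 and 28.7 ± 19.2 FPKM (adjusted p = 0.0403). The most abundant members, LOC117423331 (PI 3-kinase beta) and LOC117417940 (inositol polyphosphate 5-phosphatase A), did not pass (adjusted p = 0.291 and 0.177). Their log2 fold changes, 0.75 and -0.99, had opposite signs. Both passed without commercial feed library 3 (0.0461 and 0.0353). There LOC117423331 averaged 8.50 FPKM in commercial feed against 13.1 with it, and LOC117417940 averaged 109.6 FPKM against 87.9.

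All 10 of these calls, like most calls over all features, were lost without Limnodrilus library 1, 2 or 3, with adjusted p between 0.0504 and 0.145. Those of inpp4aa (adjusted p = 0.0591) and LOC117430210 (0.0746) were lost without commercial feed library 1, and that of inpp4aa without library 2 (0.0588), while LOC117430210 averaged 18.2 FPKM in commercial feed without library 3. Without commercial feed library 1 the calls of LOC117409636 (adjusted p = 0.0877) and LOC117430748 (0.0503) were lost too, and without library 2 those of LOC117409636 (0.111), LOC117432305 (0.0572), LOC117394892 (0.0516), LOC117405907 (0.0583) and LOC117430748 (0.0571). LOC117409636 averaged 2.45 FPKM in commercial feed without library 3. Under median-of-ratios scaling LOC117409636 did not pass (0.0579), and under TPM scaling LOC117432305 did not (0.0502).

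Phospholipase C, which splits phosphatidylinositol bisphosphate, and the inositol trisphosphate receptors gave 1 rise and 2 falls among 23 tested features (4.35% and 8.70%, beside 14% and 3.64% of all), with a median of -0.19. The 2 falls were phospholipase C gamma-1 loci: LOC117430821 fell to 2.34 ± 0.585 FPKM with Limnodrilus, against 9.33 ± 2.52 with commercial feed (adjusted p = 0.0178), and LOC117420443 to 1.83 ± 0.789, against 5.97 ± 0.604 (adjusted p = 0.0301). The beta-3 locus LOC131696606 averaged 5.80 ± 2.57 and 0.921 ± 0.810 FPKM with Limnodrilus and with commercial feed (adjusted p = 0.0250). LOC117435716 (delta-1), the most abundant, averaged 23.6 FPKM with Limnodrilus and 7.16 FPKM with commercial feed and missed the threshold (adjusted p = 0.0680), but passed without commercial feed library 3 (0.0121), where its commercial feed mean was 3.797 FPKM. The 3 calls, like most calls over all features, were lost without Limnodrilus library 1, 2 or 3 (adjusted p 0.0660 to 0.134). Those of LOC131696606 and LOC117420443 were lost without commercial feed library 2 (0.0718 and 0.0697), and that of LOC131696606 without library 1 (0.0552). LOC131696606 averaged 0.455 FPKM in commercial feed without library 3. With a commercial feed mean under 1 FPKM, this locus met the minimum for the test through its Limnodrilus libraries alone, so it had to differ.

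Kinases and phosphatases of soluble inositol phosphates gave 5 rises among 25 tested features (20%, beside 14% of all), while 20 missed the threshold, with a median of 0.83. The pentakisphosphate 2-kinase locus LOC117414128, which completes inositol hexakisphosphate, was at 7.33, 8.89 and 8.66 FPKM with Limnodrilus and at 0.849, 1.47 and 2.23 FPKM with commercial feed (log2 fold change 1.92 ± 0.320 SE, adjusted p = 0.0122). LOC131698659 (tetrakisphosphate 1-kinase) averaged 44.8 ± 9.40 FPKM with Limnodrilus and 15.9 ± 1.96 with commercial feed (adjusted p = 0.0249). The diphosphoinositol phosphohydrolase LOC117414487 and the trisphosphate 3-kinase C locus LOC117416187 also rose (adjusted p = 0.0235 and 0.0271). A second tetrakisphosphate 1-kinase locus, LOC131702753, was at 24.5, 41.6 and 44.8 FPKM with Limnodrilus and at 2.42, 3.50 and 70.1 FPKM with commercial feed (adjusted p = 0.266). Without commercial feed library 3, the one at 70.1, its commercial feed mean was 2.96 FPKM and it passed (0.00603). The 4 named calls, like most calls over all features, were lost without Limnodrilus library 1, 2 or 3 (adjusted p 0.0563 to 0.118). Without commercial feed library 1 the call of LOC117416187 was lost (0.0590), and without library 2 those of LOC117414487, LOC131698659 and LOC117416187 (0.0662, 0.0653 and 0.0691). LOC117416187 averaged 9.24 FPKM with Limnodrilus without library 2, against 14.1 with it. LOC117414487, with a commercial feed mean under 1 FPKM, met the minimum for the test through its Limnodrilus libraries alone, so it had to differ.

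Over the 7 inositol lists together, without LOC131721867, 152 of 203 features were tested, of which 23 rose (15.1%), 8 fell (5.26%) and 121 missed the threshold. Those shares are near the 14% and 3.64% of all tested features, and the median of 0.28 is near the 0.243 over all, so as a whole the pathway was called about as often as the table at large. After the synthase loci, the highest log2 fold change among the named inositol loci was the 2.40 of LOC117400900.

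**Figure D4:**
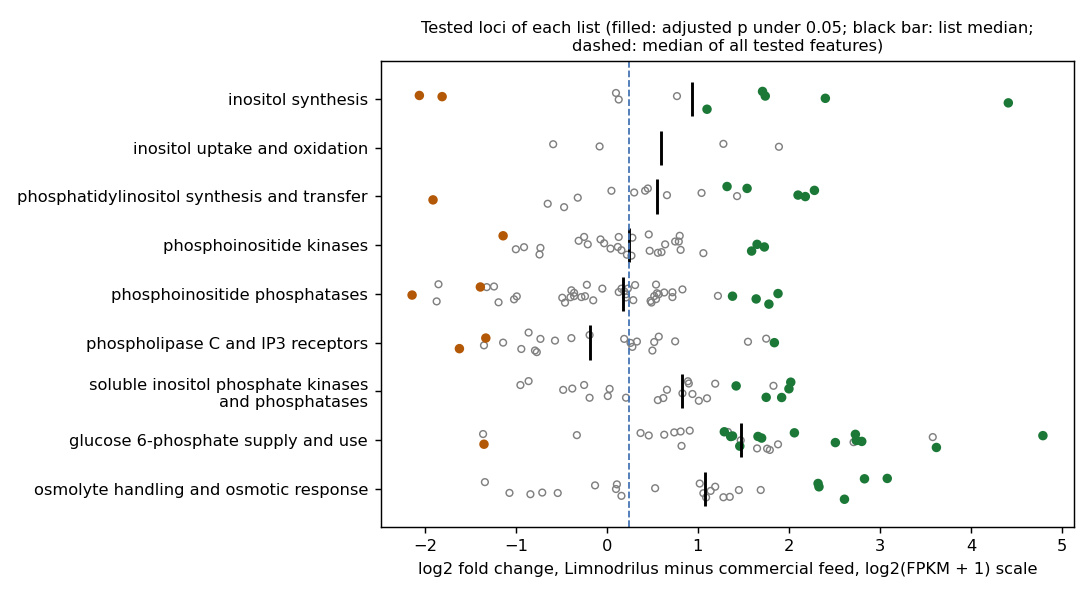
Log2 fold change of log2(FPKM + 1), Limnodrilus minus commercial feed, of every tested locus in each list other than LOC131721867; filled points passed the limma-trend test, black bars are list medians and the dashed line is the median of all tested features, 0.243. The point at 4.41 in the top row is LOC117401487, and the medians run from -0.19 for phospholipase C and the inositol trisphosphate receptors to 1.47 for glucose 6-phosphate supply and use.

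Glucose 6-phosphate is the substrate of the synthase, and of 31 tested features for its supply and use 13 rose, 1 fell and 17 missed the threshold, with a median of 1.47. The shares are 41.9% higher and 3.23% lower, beside 14% and 3.64% of all tested features. Of 7 tested loci of hk1, hk2 and hkdc1, hexokinases that make glucose 6-phosphate, hk1, LOC117397867 (hexokinase-2) and hkdc1 rose (adjusted p = 0.0161, 0.0250 and 0.0253) and 4 missed the threshold. These 3 lie outside the naming rule and were chosen after their values were seen. Their calls, like most calls over all features, were lost without Limnodrilus library 1, 2 or 3 (adjusted p 0.0662 to 0.0960). That of hkdc1 was also lost without commercial feed library 1 or 2 (0.0551 and 0.0760). Without commercial feed library 3 the commercial feed mean of LOC117397867 was 1.55 FPKM and that of hkdc1 4.45 FPKM. The dehydrogenase locus LOC117962653, which commits it to the pentose phosphate pathway, was at 3.72, 4.75 and 5.68 FPKM with Limnodrilus and at 0.368, 0.496 and 0.217 FPKM with commercial feed (log2 fold change 2.06 ± 0.297 SE, adjusted p = 0.00917). The facilitative glucose transporter loci LOC117425557 and LOC117425195 averaged 10.6 and 14.2 FPKM with Limnodrilus and 0.689 and 1.42 FPKM with commercial feed (adjusted p = 0.00921 and 0.0154). Cytosolic phosphoenolpyruvate carboxykinase LOC131698561, of gluconeogenesis, was at 15.3, 101 and 14.7 FPKM with Limnodrilus (14.97 on average without library 2) and at 0.146, 0.0760 and 0 FPKM with commercial feed (adjusted p = 0.00934). This locus, LOC117962653 and LOC117425557 averaged under 1 FPKM with commercial feed. They met the minimum for the test through their Limnodrilus libraries alone, so features kept in this way had to differ. The catalytic glucose-6-phosphatase locus LOC117434667, the most abundant member, was at 36.9, 237 and 132 FPKM with Limnodrilus and at 0.410, 6.66 and 64.6 FPKM with commercial feed (adjusted p = 0.0995). In both diets these values follow the order of the enterocyte marker sums. So does the mean log2(FPKM + 1) of the list's tested features, at 3.41, 4.13 and 3.56 with Limnodrilus and 1.73, 1.88 and 2.84 with commercial feed. The symbol slc5a1 is in both this list and the enterocyte markers. The part of those cells in the result for this locus or the list was not tested. LOC117434667 passed without commercial feed library 3 (0.0119), where the commercial feed mean was 3.53 FPKM, and its Limnodrilus mean was 84.6 FPKM without library 2. Of the 4 calls of smallest p, that of LOC117425195 was lost without Limnodrilus library 1, 2 or 3 or commercial feed library 2 (adjusted p = 0.0555, 0.0689, 0.0598 and 0.0505), and its commercial feed mean was 0.429 FPKM without library 3. LOC117425557 averaged 0.419 FPKM in commercial feed without library 3. The call of LOC117962653 was lost without Limnodrilus library 3 (0.0519).

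Myo-inositol is one of several osmolytes, and the wider list of osmolyte handling and osmotic response held 24 tested features, of which 5 rose (20.8%, beside 14% of all) and 19 missed the threshold, with a median of 1.08. The heat shock 70 kDa protein 4 loci LOC117413381 and LOC131699473 are general co-chaperones, and averaged 62.8 and 33.7 FPKM with Limnodrilus and 9.58 and 3.28 FPKM with commercial feed (adjusted p = 0.00758 and 0.00799). The kinase SGK1, an ion transport regulator, rose at LOC117403374 and LOC117411073, which averaged 38.2 and 98.1 FPKM with Limnodrilus and 6.27 and 15.8 FPKM with commercial feed (adjusted p = 0.0152 and 0.0321). The taurine transporter locus LOC117414140 rose (log2 fold change 2.33, adjusted p = 0.0478; 0.101 to 0.142 without any 1 library other than commercial feed library 3, without which its commercial feed mean was 1.82 FPKM), while LOC117412330, the other taurine transporter locus, averaged 109 FPKM with Limnodrilus and 336 FPKM with commercial feed (adjusted p = 0.215). NFAT5, the transcription factor of the osmotic response in mammals, has the loci LOC117424492 and nfat5b, which averaged 10.6 and 29.5 FPKM with Limnodrilus and 4.74 and 55.2 FPKM with commercial feed, and neither passed (adjusted p = 0.0856 and 0.140). The 3 aldo-keto reductase B1 loci, for the enzyme that makes sorbitol, did not pass either (adjusted p = 0.0547, 0.874 and 0.831 for LOC117416154, LOC117416239 and zgc:56622). The most abundant member, the TSC22 domain family protein 3 locus LOC117430647, was at 220, 269 and 191 FPKM with Limnodrilus and at 77.8, 419 and 1056 FPKM with commercial feed (adjusted p = 0.692), with a commercial feed mean of 248 FPKM without library 3. The values of the taurine transporter, NFAT5 and reductase loci are given beyond the naming rule, chosen after they were seen. Of the 4 calls of smallest p, LOC117411073 was lost without Limnodrilus library 1, 2 or 3 (adjusted p = 0.0937, 0.122 and 0.0747) and without commercial feed library 1 or 2 (0.0596 and 0.0896), with a commercial feed mean of 7.26 FPKM without library 3. LOC117403374 was lost without Limnodrilus library 1 or 2 (0.0608 and 0.0553).

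The 8 annotated features whose profile over the 6 libraries was most like that of LOC131721867 were sought by the root-mean-square difference of log2(FPKM + 1) after each feature's own mean was removed. The closest was the serum amyloid P-component-like locus LOC117973264, a pentraxin, with a difference of 0.180 and 33.0, 25.5 and 23.2 FPKM with Limnodrilus, listed at 0 in each commercial feed library, and the second was the other synthase locus, LOC117401487, at 0.307. The carbohydrate sulfotransferase gene chst6 (0.325) was at 39.0, 31.8 and 49.4 FPKM with Limnodrilus and at 0.726, 0.271 and 0.572 FPKM with commercial feed. Next came the ferritin middle subunit locus LOC117407586 (0.348), for iron storage, and the mitochondrial 60 kDa heat shock protein locus LOC117426226 (0.373), a chaperonin. Ferritin LOC117407586 was far more abundant, at 1612, 1540 and 820 FPKM with Limnodrilus and 68.8, 60.5 and 46.0 FPKM with commercial feed. The lipid transferase CIDEC loci LOC117962611 and LOC131697676 (0.408 and 0.422), which act in lipid droplet growth, averaged 24.1 and 30.2 FPKM with Limnodrilus and 0.390 and 0.593 FPKM with commercial feed. The difference was 0.419 for sqlea, squalene monooxygenase of sterol synthesis. These features were chosen for their likeness to a profile that separates the diets, so their own diet differences are given without a test. The exception is LOC117401487, which was tested above as the other locus of the same product name.

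**Figure D5:**
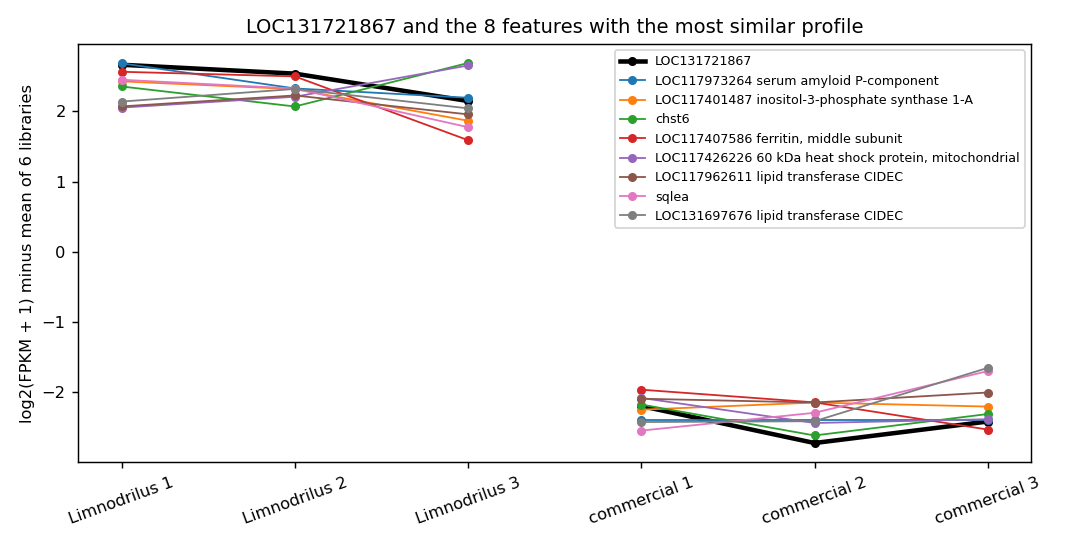
Log2(FPKM + 1) minus the mean over the 6 libraries, for LOC131721867 (thick black line) and the 8 annotated features of most similar profile, in Limnodrilus libraries 1 to 3 and then commercial feed libraries 1 to 3. All 9 profiles are high in every Limnodrilus library and low in every commercial feed library, with root-mean-square differences from LOC131721867 of 0.180 to 0.422.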

How the data were processed

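Poly(A) RNA of gut was sequenced in 6 libraries, 3 per diet. The values are FPKM that the authors deposited in 1 table with a length for each feature. The submitters' processing notes name cutadapt 1.9 and the mouse build mm10, whereas the table uses RefSeq names for 1032 sequences. Per the labels' protocols the second strand was digested. Which aligner, counting tool and strand setting were used, and how reads with several matches were handled, is not given in the sources used here.

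FPKM times length fell on whole steps (within 0.1 of a read) for 100% of values up to 20 reads in every library, and for 90.3% to 95.5% of all values, which gave read totals per library. Values were taken as log2(FPKM + 1) for the 23644 features whose mean reached 1 FPKM. The diet comparison used limma 3.58.1 under R 4.3.3 (limma-trend, 2-sided, Benjamini-Hochberg over all features, threshold 0.05). List members were matched by symbol or product name (118 of 127 pathway symbols), and each count leaves out LOC131721867. Named were the synthase loci, all members of the 2 inositol synthesis and uptake lists, in each list the most abundant member and up to 4 called ones ranked by p, the 8 most alike features and the 3 neighbours on each side. The locus and the lists were chosen with earlier results of these data known. Many proteins have several loci here, and reads shared between near-identical copies make single loci uncertain. Alternatives were another pseudocount, filters, scalings, variance models, the replicate number as a block, limma-voom on recovered reads (3434 calls) and leaving out libraries.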

Additional observations from a re-analysis of the deposited data

How the results depend on the processing

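On the log2 scale the difference at LOC131721867 was 4.90, and 6.14 with a pseudocount of 0.1, 5.41 with TPM, 4.53 with quantile normalization, 6.34 with limma-voom on recovered reads and 4.76 to 5.05 without each single library. LOC117401487 passed under every alternative run, at 4.06 to 7.15. It met the minimum of the main test through its Limnodrilus libraries alone, so it had to differ, and it may share reads with LOC131721867. Of all features 4182 were called, against 2625 at a minimum mean of 5 FPKM, 2607 with the replicate block and 564 to 6435 without 1 library. Of the inositol features 31 were called, against 2 to 55 without 1 library and 17 without commercial feed libraries 1 and 2 together, an alternative chosen after seeing the data. The counts were lowest without a Limnodrilus library (692, 564 and 592 of all features without library 1, 2 or 3), 2028 without commercial feed library 2 and 6435 without library 3; the cause was not tested. The higher share of all calls was 79.4%, and 60% under median-of-ratios scaling, 58.3% under quantile normalization and 51% without commercial feed libraries 1 and 2, with the median log2 fold change at 0.009, -0.032 and 0.103 in place of 0.243. Inositol rises and falls were then 19 and 12, 21 and 14, and 8 and 9. The deviations of same-numbered libraries from their diet means had correlations of 0.187, -0.0692 and 0.0747 for numbers 1 to 3. With 3 libraries per diet these values cannot settle whether the numbers pair the libraries, and the labels give no pairing. With the replicate block 27 of the 33 named pathway calls other than LOC117401487 held. With no filter on low values 25 held. The 8 lost there were LOC117399387, bpnt2, LOC131696488, LOC117409636, LOC131696606, LOC117420443, LOC117416187 and LOC117411073 (limma-trend adjusted p 0.0502 to 0.0691). None of the 33 changed direction under the alternatives run.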
